A study of Mus musculus with 12 samples.

Results

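Thyrotropin is the pituitary hormone that drives the thyroid gland, and 6 genes of its axis were followed here through 12 pituitary RNA libraries. The genes are Tshb (the beta subunit of thyrotropin), Trhr (the receptor for thyrotropin-releasing hormone), Dio2 (the deiodinase that makes active thyroid hormone from thyroxine), Gata2 (a transcription factor of thyrotrophs), Tshr (the thyrotropin receptor) and Trh (thyrotropin-releasing hormone itself). They were taken by name from the 55421 gene IDs of each count table, and all 6 had counts and entered the tests. Thyrotrophs are a minority cell type of the anterior lobe. They join the beta subunit to the alpha subunit Cga, which gonadotrophs also make. Hypothalamic thyrotropin-releasing hormone stimulates them through Trhr, and thyroid hormone, partly formed inside the pituitary by Dio2, represses Tshb.

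The mice were C57BL/6 and all carried floxed Gpr101, a receptor gene on the X chromosome. The genotype label of one arm is Cga-ctrlAAVGpr101fl/fl (a control adeno-associated virus) and that of the other Cga-creAAVGpr101fl/fl (a virus of this kind that brings cre, the recombinase that deletes DNA between loxP sites). Mice of each arm received vehicle or AA14, a ligand of Gpr101, over 1 week. This gave the groups ctrl_Vehicle, ctrl_AA14, cre_Vehicle and cre_AA14, with 3 libraries each. The virus names carry Cga, the gene of the alpha subunit. The labels do not say which cells the viruses reached, and they give neither the animals behind each library nor their age. Pituitaries were dispersed into cells before RNA was taken. Each library holds the RNA of many cells together, so fewer thyrotrophs and less RNA per thyrotroph cannot be told apart.

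Totals ranged from 48693682 to 73388221 counts per library. Gpr101 itself lay between 0.901 and 16.1 CPM, with overlapping values in the cre and control arms. CPM stands for a gene's counts scaled to the size of its library, corrected by a TMM normalization factor. In 5 libraries, the 3 of ctrl_AA14, cre_Vehicle 1 and cre_AA14 2, the nuclear RNA Malat1 was at 1105 to 1560 CPM, against 199 to 549 CPM in the other 7. In control mice this state and AA14 fall on the same libraries and cannot be told apart. The libraries ctrl_Vehicle 3, ctrl_AA14 1 and cre_Vehicle 2 were rich in oligodendrocyte markers, with a summed level of 721 to 3232 CPM, against 54.9 to 441 CPM elsewhere.

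The stretches upstream of Tshb and Dio2 show what these genes carry close to their RefSeq starts. Both are 240 bases from 250 to 11 bases before the RefSeq start, read 5′ to 3′ on the gene strand (GRCm38.p6, RefSeq). Tshb is at chr3:102782725-102782964 and Dio2 at chr12:90739049-90739288, both on the minus strand. Capitals mark TATAAA on the gene strand in both, AGATAA (searched on both strands, a form of the letters that GATA factors bind) in Tshb, and TGACGTCA (searched on both strands, the cyclic AMP response element) in Dio2.
Tshb: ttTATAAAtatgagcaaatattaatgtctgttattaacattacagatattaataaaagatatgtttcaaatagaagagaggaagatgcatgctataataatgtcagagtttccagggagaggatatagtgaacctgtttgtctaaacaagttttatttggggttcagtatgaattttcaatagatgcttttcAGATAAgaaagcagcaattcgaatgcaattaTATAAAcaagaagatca
Dio2: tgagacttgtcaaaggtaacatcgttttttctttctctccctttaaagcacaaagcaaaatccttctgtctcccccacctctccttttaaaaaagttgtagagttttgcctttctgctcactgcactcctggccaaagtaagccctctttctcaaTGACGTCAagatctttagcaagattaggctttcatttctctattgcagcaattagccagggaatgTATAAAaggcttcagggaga
The Tshb window holds 1 AGATAA, which starts 58 bases before the gene start, and 9.74% of 32851 upstream windows of that length hold it. The Dio2 window holds 1 TGACGTCA, 95 bases before the RefSeq start, which 1.44% of windows hold. The GENCODE M21 start of Dio2, at 90738438, lies further downstream, so the distance from there is greater. TATAAA occurs on the gene strand of 7.4% of windows. Such letter matches describe the sequence and are not shown to be used in these cells. Of the 6 genes, 4 had an entry in the promoter table.

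Per length of annotated exon sequence, the members spanned a wide range of levels. Tshb was highest, with a mean of 74.9 CPM per kb over the 12 libraries (32.2 to 118). Dio2 followed at 17.9 CPM per kb (11.6 to 25.1), below Tshb in every library. Gata2, at 4.79 CPM per kb (2.93 to 8.24), and Trhr, at 3.40 CPM per kb (2.33 to 4.48), overlapped each other and stood below Dio2. Tshr was at 0.200 CPM per kb (0.0933 to 0.356). Trh was at or near 0 in most libraries and reached 32.9 CPM per kb in one of them, so it has no stable place in this order. For comparison, the alpha subunit Cga was at 6050 CPM per kb (3323 to 7864). Lengths are the union of all annotated exons, which can exceed the transcript that is made, so these levels are approximate. Of the exons, 100 bp of Dio2 and 305 bp of Cga lie opposite another gene and could share reads with it.

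Tshb (ENSMUSG00000027857, chromosome 3, 102775465 to 102782718) had, leaving Trh aside, the largest positive log2 fold change of the members in the 5 comparisons made. The ctrl_Vehicle libraries held it at 277, 305 and 146 CPM, and the ctrl_AA14 libraries at 464, 539 and 386 CPM, in the order of their numbers. In cre mice the vehicle libraries held 493, 192 and 245 CPM and those given AA14 held 360.5, 435 and 248 CPM. The 3 ctrl_AA14 libraries thus all lay above the 3 ctrl_Vehicle libraries, while the cre groups overlapped each other and both control groups. In the order ctrl_Vehicle, ctrl_AA14, cre_Vehicle and cre_AA14, the means were 243 ± 84.8, 463 ± 76.6, 310.1 ± 161 and 348 ± 94.0 CPM (SD, n = 3 each). Ordered by mean, ctrl_AA14 was followed by cre_AA14, cre_Vehicle and ctrl_Vehicle, and each overlapped its neighbour in that order.

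Cga, the partner subunit, lay close to Tshb in its pattern across libraries. In the same order of groups its means were 4786 ± 1498, 6938 ± 623, 5247 ± 1937 and 6115 ± 1115 CPM (SD, n = 3 each). Its log2 fold change with AA14 in control mice was 0.54 (SE 0.28, edgeR adjusted p = 0.267), without overlap between the groups, and 0.31 without ctrl_Vehicle 3. In CPM, Cga stood 13.9 to 22.1 times above Tshb. That ratio averaged 20.1 ± 3.07, 15.1 ± 1.17, 17.7 ± 3.63 and 18.0 ± 2.66 in the 4 groups (SD, n = 3 each). Gonadotrophs share Cga, and their own beta subunit genes Lhb and Fshb were at 460.5 to 864 and 671 to 1577 CPM, so Cga does not measure thyrotrophs alone.

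**Figure D1:**
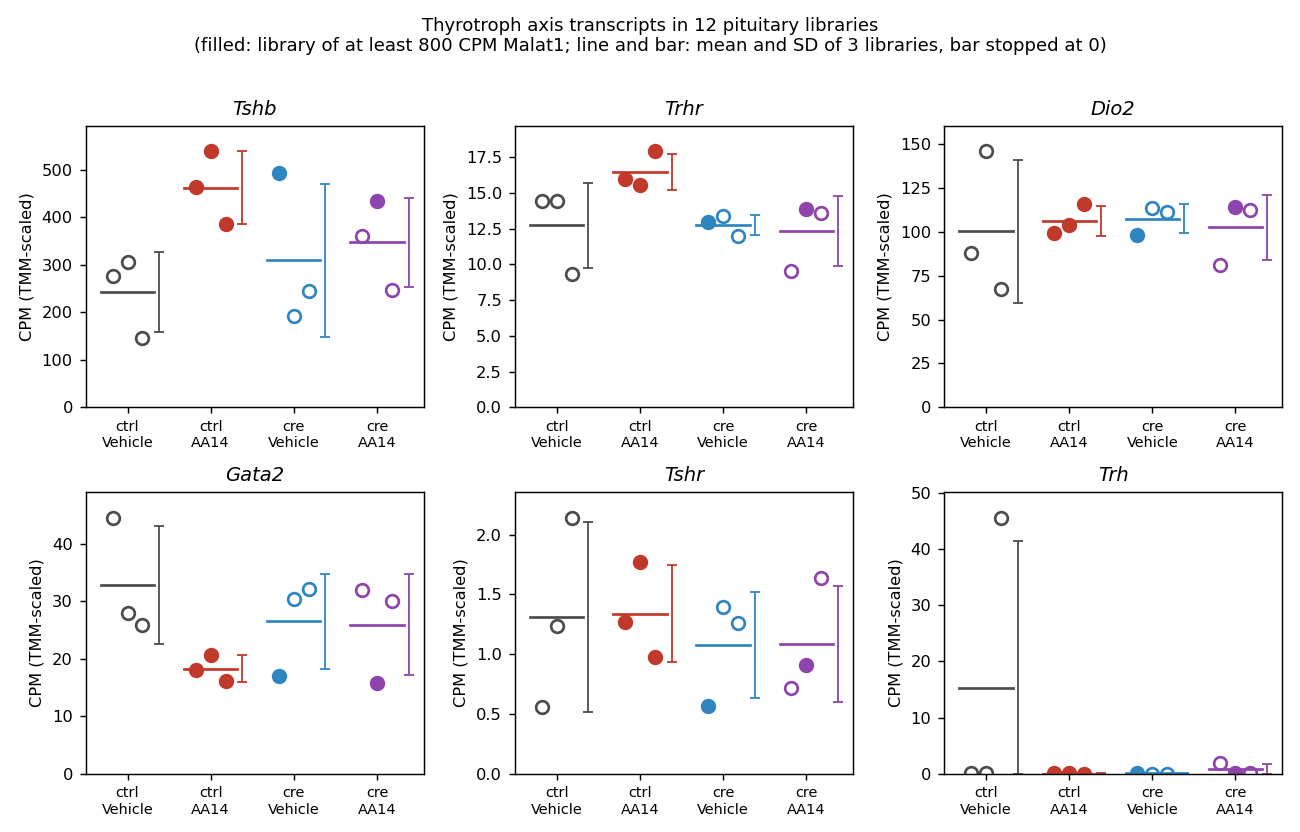
Level of each member gene in CPM (vertical axis, from 0) in the 4 groups (horizontal axis). Points are libraries, filled where Malat1 is at least 800 CPM, and lines and bars are the mean and SD of 3 libraries. Tshb is at 386 to 539 CPM and Gata2 at 15.8 to 20.7 CPM in the filled points, and Trh stands at 45.6 CPM in a single ctrl_Vehicle library.

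Trhr (ENSMUSG00000038760, chromosome 15, 44196135 to 44235912), the receptor by which thyrotrophs sense the hypothalamic hormone and which lactotrophs carry too, varied little. The ctrl_Vehicle libraries held it at 14.4, 14.5 and 9.31 CPM, and ctrl_AA14 at 15.96, 15.6 and 17.9 CPM. In cre mice it stood at 13.0, 13.4 and 12.01 CPM with vehicle and at 9.54, 13.9 and 13.6 CPM with AA14. The ctrl_AA14 libraries were the 3 highest of the 12. The 2 lowest were ctrl_Vehicle 3 and cre_AA14 1.

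Dio2 (ENSMUSG00000007682, chromosome 12, 90724552 to 90738438) showed no shift between groups beyond its spread. In control mice it stood at 88.0, 146 and 67.3 CPM with vehicle and at 99.1, 104 and 116 CPM with AA14. In cre mice it stood at 98.0, 113 and 111 CPM with vehicle and at 81.2, 114 and 112 CPM with AA14. Both the lowest and the highest of the 12 values came from ctrl_Vehicle. The group means, 100.3, 106, 108 and 102 CPM in the order used above, lay closer together than the smallest SD within a group, 8.37 CPM. Dio2 is also made by glia. The astrocyte markers Gfap, Aqp4, Aldh1l1, Slc1a2 and Slc1a3 summed to 1099 CPM in ctrl_Vehicle 3, where Dio2 was lowest, to 708 CPM in cre_Vehicle 2, and to 71.5 to 207 CPM elsewhere.

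Gata2 (ENSMUSG00000015053, chromosome 6, 88193891 to 88207032), which acts with Pou1f1 on the Tshb promoter and is also used by gonadotrophs and endothelial cells, differed between the control groups in the direction opposite to Tshb. With vehicle the control mice gave 44.5, 27.9 and 25.9 CPM, and with AA14 they gave 18.0, 20.7 and 16.04 CPM. In cre mice it stood at 17.0, 30.4 and 32.1 CPM with vehicle and at 31.99, 15.8 and 30.0 CPM with AA14. The ctrl_AA14 libraries all lay below ctrl_Vehicle, and the low library of each cre group was the one rich in Malat1. The 6 endothelial markers summed to 131 to 205 CPM over all libraries, from 149.7 to 176 CPM in the ctrl_Vehicle libraries, and from 131 to 169 CPM in those of ctrl_AA14. One of them, Plvap, was at 20.5 to 36.2 CPM in the Malat1-rich libraries and 55.5 to 98.6 CPM elsewhere, while another, Emcn, was at 45.0 to 51.2 and 20.9 to 38.2 CPM. Their part in the Gata2 values was not tested.

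Tshr (ENSMUSG00000020963, chromosome 12, 91384563 to 91549808), best known as the receptor of thyroid cells, was detected at a low level in all libraries. Its counts were 38, 87 and 156 in ctrl_Vehicle, 93, 124 and 65 in ctrl_AA14, 28, 104 and 82 in cre_Vehicle, and 47, 50 and 87 in cre_AA14. The range was 0.561 to 2.14 CPM, and both ends came from ctrl_Vehicle. The 4 thyroid markers summed to 13.7 CPM in ctrl_Vehicle 3, where Tshr was highest, and to 2.14 to 4.27 CPM elsewhere. One of them, the iodide transporter Slc5a5, was at 12.1 CPM there and at most 1.90 CPM elsewhere, while thyroglobulin (Tg), the defining marker, was at 0.549 CPM there and 0.174 to 0.870 CPM over all libraries. Their part in the Tshr values was not tested. Of 4 adipocyte markers, another site of Tshr, 3 had no count in any library, among them Adipoq.

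Trh (ENSMUSG00000005892, chromosome 6, 92242061 to 92244650) was carried by a single library. It had 4, 4 and 3320 counts in ctrl_Vehicle, 4, 4 and 0 in ctrl_AA14, 8, 0 and 0 in cre_Vehicle, and 125, 12 and 8 in cre_AA14. ctrl_Vehicle 3 therefore held 3320 of the 3489 counts, at 45.6 CPM, followed by cre_AA14 1 at 1.91 CPM. Thyrotropin-releasing hormone is a product of hypothalamic neurons, and in ctrl_Vehicle 3 the factor Otp, which marks such neurons, was at 36.7 CPM, against at most 0.776 CPM elsewhere. Sim1, a factor of the paraventricular nucleus, was at 2.11 CPM there and at most 0.163 CPM elsewhere, and Avp (vasopressin) at 293 and at most 24.6 CPM. In cre_AA14 1, Otp was at 0.368 CPM, Sim1 at 0 and Avp at 24.6 CPM. The 5 neuron markers (Avp, Oxt, Snap25, Sim1 and Otp) summed to 896 CPM in ctrl_Vehicle 3 and 312 to 680 CPM in the others. Their part in the Trh counts was not tested.

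Low counts in these tables come in steps. Of 23239 values between 1 and 31 at protein-coding genes, 41.8% were multiples of 4, whereas 22.6% of the whole numbers in that range are. The value 4 occurred 3024 times, against 723 for 3 and 1715 for 5. A Trh count of 4 or 8 may therefore stand for fewer independent fragments than it states. The step was not explained by the sources used here.

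**Figure D2:**
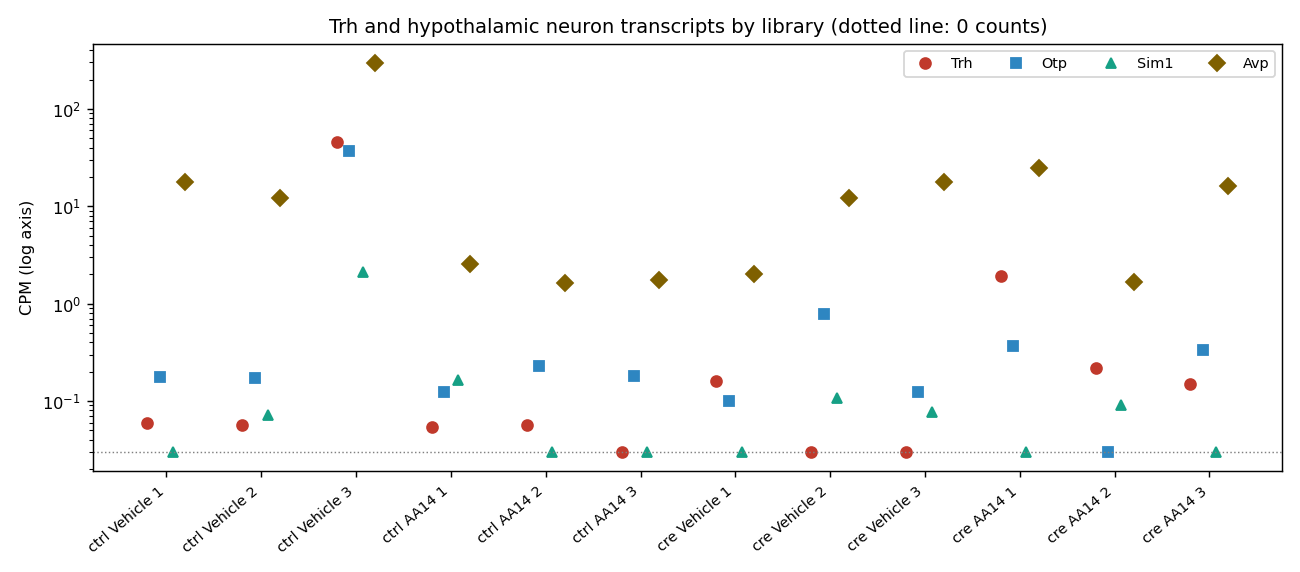
CPM on a log axis (vertical) of Trh and 3 hypothalamic neuron transcripts in the 12 libraries (horizontal), with points on the dotted line standing for 0 counts. In ctrl_Vehicle 3 Trh is at 45.6, Otp at 36.7 and Avp at 293 CPM, the highest value of each.

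The first comparison asks whether AA14 changed these genes with Gpr101 intact. In edgeR (quasi-likelihood F test, Benjamini-Hochberg adjustment over 22630 genes, threshold 0.05), 0 of 6 members passed, where 0.00442% of all genes did. The log2 fold change of Tshb was 0.93 (SE 0.37, edgeR adjusted p = 0.170), a 1.91-fold difference. For Gata2 it was -0.85 (SE 0.32, adjusted p = 0.159), for Trhr 0.37 (SE 0.21, adjusted p = 0.299), for Dio2 0.08 (SE 0.24, adjusted p = 0.865) and for Tshr 0.03 (SE 0.53, adjusted p = 0.981). At an unadjusted p under 0.05 there were 3 of 6 members (Tshb, Gata2 and Trh), against 23.8% of all genes. The groups did not overlap for Tshb and Trhr, which were higher under AA14, and for Gata2, which was lower. That is 3 of 6, where 17.6% of all genes were higher without overlap, 20.1% lower, and 37.7% either.

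Tools differed on Tshb and Gata2. limma-voom with quality weights called 2 of 6 members, Tshb (log2 fold change 0.80, adjusted p = 0.0400) and Gata2 (-0.85, adjusted p = 0.0298), while it called 15.1% of all genes. DESeq2, which gave Trh no p-value in any comparison, called 0 of the other 5 members and 10.2% of all genes, with adjusted p of 0.0692 for Tshb and 0.0730 for Gata2. Single libraries also set the sizes. Tshb was at 0.67 without ctrl_Vehicle 3 and at 1.13 without ctrl_Vehicle 2. Trhr was at 0.19 without ctrl_Vehicle 3, and Gata2 at -0.56 without ctrl_Vehicle 1. Dio2 lay between -0.14 without ctrl_Vehicle 3 and 0.45 without ctrl_Vehicle 2. For Trh, the fitted difference rested on ctrl_Vehicle 3 (adjusted p = 0.141, and 0.901 without that library).

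After cre, no difference between AA14 and vehicle was detected in a member, with 0 of 6 called in edgeR, DESeq2 or limma-voom and 0 of 6 at an unadjusted p under 0.05. Of all genes, edgeR called 0%, DESeq2 0.0619% and limma-voom 0%, and 2.29% had an unadjusted p under 0.05 (1.2% higher, 1.09% lower). The log2 fold change of Tshb was 0.17 (SE 0.36), of Trhr -0.05 (SE 0.21), of Dio2 -0.07 (SE 0.25), of Gata2 -0.03 (SE 0.32), of Tshr 0.01 (SE 0.54) and of Cga 0.22 (SE 0.28), each with an edgeR adjusted p = 1.00. The groups overlapped for all 6 members, where 5.86% of all genes did not (3.32% higher, 2.54% lower). Each cre group holds 1 Malat1-rich library. Among the cre libraries poor in Malat1, 2 per group, Tshb was at a log2 fold change of 0.47 (SE 0.36) and Gata2 at -0.02 (SE 0.27), both with an edgeR adjusted p = 1.00. For Tshb the sign turned without cre_Vehicle 2 (-0.08) or cre_AA14 2 (-0.03), and without cre_Vehicle 1 the value was 0.66.

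The difference between the AA14 effects of both viruses was tested next, as control minus cre. In edgeR 0 of 6 members passed, where 0.00442% of all genes did, and DESeq2 and limma-voom called no member, with 0.115% and 0% of all genes. The difference was 0.76 for Tshb (SE 0.52, edgeR adjusted p = 0.645), 0.42 for Trhr (SE 0.30, adjusted p = 0.653), 0.15 for Dio2 (SE 0.35, adjusted p = 0.900), -0.81 for Gata2 (SE 0.45, adjusted p = 0.631) and 0.01 for Tshr (SE 0.76, adjusted p = 0.997). Without cre_Vehicle 1 the difference for Tshb was 0.26, and without cre_Vehicle 2 it was 1.01. That for Gata2 was -0.53 without ctrl_Vehicle 1, and that for Trhr 0.24 without ctrl_Vehicle 3. At an unadjusted p under 0.05 edgeR had 1 of 6, Trh, and limma-voom 2 of 6, Gata2 and Trh. In edgeR that compares with 7.03% of all genes (2.17% higher, 4.86% lower), and in limma-voom with 3130 of 22630 genes.

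The cre virus was compared with the control virus under each treatment, using the same 4 groups. Under vehicle 0 of 6 members passed in edgeR, DESeq2 or limma-voom (of all genes 0.00442%, 0.084% and 0.00884% did), and the groups overlapped for all 6, where 4.92% of genes had no overlap (2.39% higher, 2.53% lower). Tshb was at a log2 fold change of 0.35 (SE 0.36, edgeR adjusted p = 1.00). Its sign rested on the Malat1-rich library cre_Vehicle 1, without which it was -0.15, and among the vehicle libraries poor in Malat1 it was likewise -0.15 (SE 0.33). At an unadjusted p under 0.05 there was 1 of 6, Trh, with 3328 counts in ctrl_Vehicle and 8 in cre_Vehicle, where 2% of all genes reached that level, 0.932% higher and 1.06% lower.

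Under AA14, 0 of 6 members passed in edgeR, DESeq2 or limma-voom. In edgeR 0 of 6 had an unadjusted p under 0.05, where 8.52% of all genes did (7.08% higher, 1.44% lower). In limma-voom 3 of 6 did (Tshb, Trhr and Gata2), and its own share of all genes at that level is not reported here. Of all genes, edgeR called 0%, DESeq2 0.15% and limma-voom 0%. Tshb was at -0.41 (SE 0.36, edgeR adjusted p = 0.738) and Gata2 at 0.51 (SE 0.32, adjusted p = 0.655), the reverse of their signs with AA14 in control mice. Without cre_AA14 3 Tshb was at -0.22, without cre_AA14 2 Gata2 was at 0.77, and without cre_AA14 1 Gata2 was at 0.33 and Trhr at -0.26. Both comparisons share ctrl_AA14, so these are not separate observations. Trhr was lower in each cre_AA14 library than in any ctrl_AA14 library (-0.42, SE 0.21, adjusted p = 0.606), and Trh counts were higher in each. That is 2 of 6 without overlap, where 14.1% of all genes had none (7.3% higher, 6.76% lower). For Trh the counts were 125, 12 and 8 against 4, 4 and 0, so its separation rests on low counts, which come in steps. Only cre_AA14 2 is Malat1-rich in its group, so no fit within that state had 2 libraries in both groups.

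**Figure D3:**
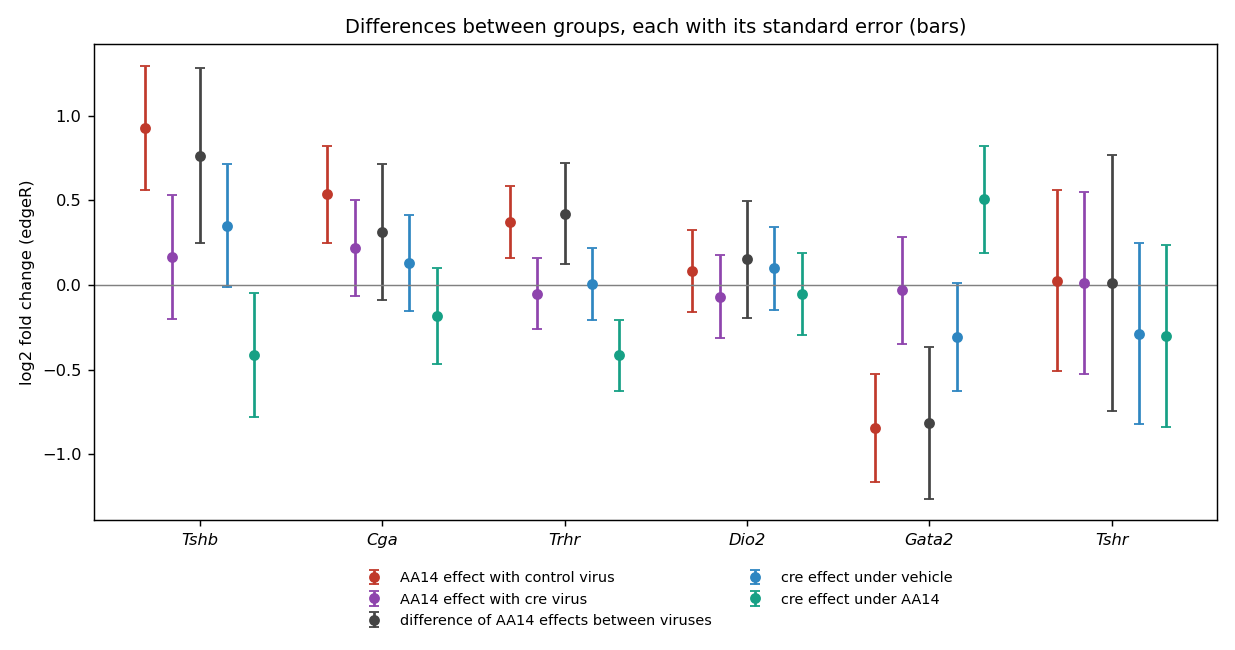
log2 fold changes (vertical axis) of Cga and of 5 members (horizontal axis) in the 5 comparisons, coloured by comparison, with bars of 1 standard error. Trh is left out because its counts are at or near 0 in most libraries. The largest values are 0.93 for Tshb and -0.85 for Gata2 with AA14 in control mice, and those of Dio2 lie between -0.07 and 0.15.

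Across all 12 libraries, Tshb, Cga, Pou1f1 and Gata2 separated by Malat1 state. In the 5 Malat1-rich libraries Tshb had a median of 464 CPM (386 to 539), and in the 7 others 248 CPM (146 to 360.5), without overlap. Cga was at 6269 to 7502 CPM in the former and 3170 to 6127 CPM in the latter. Gata2 had a median of 17.0 CPM (15.8 to 20.7) and 30.4 CPM (25.9 to 44.5). Pou1f1, the lineage factor of thyrotrophs, somatotrophs and lactotrophs, was at 194 to 258 and 123 to 175 CPM. Such a separation was found for 9.23% of all genes in the direction of Tshb and for 13.1% in that of Gata2. Trhr, Dio2, Tshr and Trh overlapped between the states. Since the state was read from the data and coincides with AA14 in control mice, these are levels with no test.

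**Figure D4:**
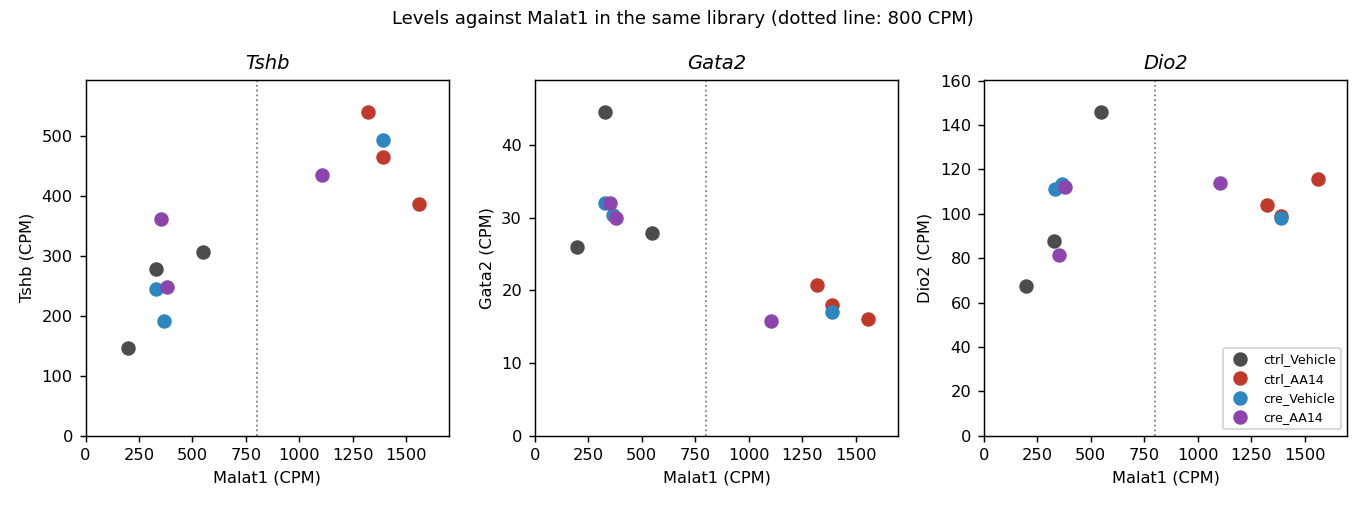
CPM of Tshb, Gata2 and Dio2 (vertical axes, from 0) against CPM of Malat1 (horizontal axis) in the same library, coloured by group, with the dotted line at 800 CPM. Right of the line Tshb is at 386 to 539 CPM and Gata2 at 15.8 to 20.7 CPM, and Dio2, at 98.0 to 116 CPM, lies within its range on the left.

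The genes whose pattern was most like that of Tshb were found by Pearson's r of log2(CPM + 0.5) over the 12 libraries, among 10181 others whose mean reached 10 CPM. They were Rasa4 (r = 0.974), Gmppa (r = 0.974), Gcdh (r = 0.972), Upk3a (r = 0.967) and Syne4 (r = 0.965). The order depended on the measure. By Spearman's rho Rasa4 and Gmppa shared place 4 (0.965), Gcdh and Upk3a place 22 (0.951), and Syne4 was at place 185 (0.888). Within the 7 Malat1-poor libraries alone r was 0.971, 0.965, 0.959, 0.912 and 0.982 for these genes. Cga ranked at place 69 with r = 0.934 (0.876 in the 7). Trhr, with r = 0.529 (0.242), Dio2, with r = 0.274 (0.348), and Gata2, with r = -0.616 (0.424), were far down the order. For Gata2 the value was negative over both library states and positive within the Malat1-poor libraries. All genes share the same libraries and their depth, so these values describe likeness only.

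Genes around the members were grouped in 6 lists by role, and in edgeR 0 genes of any list passed in any of the 5 comparisons. With AA14 in control mice, 8.03% of all genes had an unadjusted p under 0.05 and a positive value and 15.8% a negative one, and the median over all genes was -0.02. Of the signalling genes downstream of Trhr and Tshr, 21 of 22 were tested, 0 were higher and 7 lower at that level, with a median of -0.31. Named by abundance, the stimulatory G protein gene Gnas was at -0.22, the adenylyl cyclases Adcy6 and Adcy5 at 0.08 and -1.07, and the calcium release channel Itpr1 at -0.07. Of these 4, only Adcy5 had no overlap between the groups, with means of 142 ± 21.9 CPM for vehicle and 67.6 ± 8.73 CPM for AA14 (SD, n = 3 each). Genes named here and below for an unadjusted p were chosen after their values were seen.

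Of 16 genes for thyrotropin subunits and the factors that act on them, 2 were higher (Pou1f1 and Tshb) and 4 lower (Gata2 among them) at an unadjusted p under 0.05, with a median of 0.08. Pou1f1 averaged 141 ± 19.6 CPM with vehicle and 236 ± 12.5 CPM with AA14, a log2 difference of 0.74 with SE 0.20 (adjusted p = 0.141 in edgeR). Nr4a1, an immediate-early nuclear receptor, was at 0.02 (SE 0.99). Tshb is also made in the pars tuberalis, but Mtnr1a, the melatonin receptor that defines that tissue, was at no more than 0.334 CPM in any library.

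Of 19 genes of thyroid hormone feedback, which covers receptors, corepressors, transporters and deiodinases, 1 was higher (Rxrg) and 7 lower at that level, with a median of -0.54. The thyroid hormone receptor gene Thra averaged 237 ± 95.4 CPM with vehicle and 79.0 ± 10.7 CPM with AA14, a log2 difference of -1.58 with SE 0.45 (adjusted p = 0.141 in edgeR). The corepressor gene Ncor1 was at 145 ± 6.30 and 149 ± 6.78 CPM. Of 7 genes induced by thyroid hormone, 0 were higher and 2 lower (Hr and Me1), with a median of -0.54. Both medians are the value of the deiodinase gene Dio1 (SE 0.44, edgeR adjusted p = 0.472), which is in both lists, so they are not separate results. The corepressor Hr was at 38.5 ± 8.37 and 19.1 ± 1.67 CPM and malic enzyme Me1 at 40.3 ± 12.2 and 20.5 ± 1.62 CPM, while Klf9 and Thrsp had log2 fold changes of -0.33 and 0.05.

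Of 10 other receptors that act on thyrotrophs, 0 were higher and 3 lower (Glp1r, Sstr1 and Sstr3). Sstr1, a receptor for the inhibitor somatostatin, averaged 37.8 ± 6.14 and 6.24 ± 0.868 CPM, a log2 difference of -2.60 with SE 0.71 (adjusted p = 0.141 in edgeR), and Sstr3 at 26.5 ± 3.10 and 19.3 ± 1.34 CPM. The dopamine receptor Drd2 was at -0.71 (SE 0.38) and the glucocorticoid receptor Nr3c1 at 0.02 (SE 0.17). Of 7 genes for thyrotropin-releasing hormone and for enzymes that act on it or its precursor, 1 was higher (Pcsk1) and 3 lower (Cpe, Pgpep1 and Trh). The convertase Pcsk1 was at 246 ± 41.5 and 360.2 ± 26.5 CPM and carboxypeptidase Cpe at 1259 ± 264 and 692 ± 105 CPM (SD, n = 3 each). The convertase Pcsk2 was at -0.04 and the amidating enzyme Pam at -0.36.

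Other tools called some of these genes with AA14 in control mice: Adcy5, Pou1f1, Thra, Hr and Sstr1 passed in both DESeq2 and limma-voom, which called 10.2% and 15.1% of all genes. Of markers of neighbouring cells, all 7 for pituicytes (neural lobe glia) had a negative value, 3 at an unadjusted p under 0.05, and their sums overlapped, at 121 to 293 CPM in the vehicle libraries and 98.0 to 128 CPM in those given AA14. All 5 astrocyte markers were negative, 1 at that level, and all 6 oligodendrocyte markers, 0 at that level. The oligodendrocyte sums were 101, 90.0 and 2287 CPM with vehicle and 721, 54.9 and 56.8 CPM with AA14, high in ctrl_Vehicle 3 and ctrl_AA14 1. Their part in the list values was not tested.

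With AA14 after cre, 0 genes of the 6 lists had an unadjusted p under 0.05 (2.29% of all genes did), and the list medians ran from -0.12 to 0.14. Sstr1 was at -0.40 (SE 0.67), Thra at -0.12 (SE 0.44), Adcy5 at -0.14 (SE 0.25) and Pou1f1 at 0.16 (SE 0.20) there. For the difference between the viruses, 4 signalling genes (Adcy5, Adcy9, Gna11 and Gnaq) and Thra, Hr, Sstr1, Cpe and Trh had a negative value at that level, and none had a positive one, where 4.86% and 2.17% of all genes did. Between the viruses under vehicle, Nrgn and Trh were lower at an unadjusted p under 0.05 and no list gene was higher, where 1.06% and 0.932% of all genes were. Under AA14, no list gene was lower, and those higher with cre were 3 signalling genes, 2 of the factors, 3 of feedback (Slc16a10, Thra and Thrb), 2 induced by thyroid hormone (Bcl3 and Hr), 1 receptor (Sstr1) and 2 processing enzymes (Cpe and Pam). At that level 7.08% of all genes were higher and 1.44% lower. That comparison uses the same ctrl_AA14 libraries as the AA14 comparison in control mice.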

How the data were processed

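The labels' protocols state TRIzol extraction from pituitary cells, NEBNext Ultra libraries, paired reads and mapping with hisat2 2.0.0. GRCm38, DESeq 1.8.3 and featureCounts 1.5.0-p3 come from the submitters' processing notes. Each deposited table gives a raw, whole-number count for every gene of 1 library. For strand setting and annotation release, the entry is "not given in the sources used here". Of 55421 gene IDs, 55154 matched a symbol; coordinates and exon lengths are from GENCODE M21.

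After filterByExpr, 22630 genes were scaled with TMM factors and fitted in edgeR 4.0.16 (R 4.3.3) by quasi-likelihood, with 1 mean per group over 12 libraries. Standard errors are the size of the log2 fold change over the root of F. The labels do not say that libraries came from separate animals, so p-values measure only the spread between libraries, which may be technical. Scripts were tested on simulated data. In each list the text names genes past the threshold, else up to 4 of highest mean CPM; some list genes are not reported here. Members and lists were chosen with earlier results of these data known. Alternatives were RLE factors, DESeq2 1.42.0, limma-voom (limma 3.58.1), other filters, the replicate number as a block, subsets of libraries, and each library left out.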

Additional observations from a re-analysis of the deposited data

How the results depend on the processing

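With 3 libraries a group, the median standard error of a log2 fold change was 0.262 for genes of at least 1 CPM. That value is from the comparison of AA14 with control virus. It is not a limit of detection: differences of that size, and some well above it, could not be told from 0. Of the alternatives for Tshb and for counts of genes called, 128 were unchanged and 29 counts moved by over 1.5 times. Of the Tshb values, 6 turned sign and 1 crossed the threshold. Unchanged means the same direction and side of the threshold for Tshb, and for a count, within 1.5 times of the main one. In the order AA14 with control virus, AA14 with cre virus, their difference, cre under vehicle and cre under AA14, edgeR called 1, 0, 1, 1 and 0 genes (5386, 519, 1591, 452 and 1927 at an unadjusted p under 0.05). DESeq2 called 2299, 14, 26, 19 and 34, and limma-voom 3409, 0, 0, 2 and 0. Fitting the compared groups only gave 2266 with the control virus and 1 for cre under AA14. Without a low-count filter the control virus gave 2, and RLE factors gave 2 for cre under vehicle. Without the oligodendrocyte-rich libraries the first 4 comparisons gave 2, 1, 3 and 3, and cre under vehicle gave 3 among Malat1-poor libraries. Leaving out each library gave 1 to 5, 0 to 2, 1 to 3, 1 to 3 and 0 to 1. The cause was not tested.

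Tshb with AA14 and control virus was 0.80 in limma-voom (adjusted p = 0.0400), and its adjusted p over all alternatives ran from 0.0400 to 0.476. With cre virus it was -0.094 without the oligodendrocyte-rich libraries and -0.085 to 0.66 leaving out each library. For cre under vehicle it was -0.13 in limma-voom, -0.15 among Malat1-poor libraries and -0.15 to 0.60 leaving out each library. Leaving out each library gave 0.26 to 1.01 for the difference and -0.60 to -0.22 for cre under AA14.

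Other signs turned as follows. In limma-voom these were, with AA14 and control virus, Dio2 (-0.074), Adcy6 (-0.042), Nr4a1 (-0.87), Klf9 (0.0017), Thrsp (-0.012) and Nr3c1 (-0.076). With cre virus it was Trhr (0.036), for the difference Dio2 (-0.016), for cre under vehicle Trhr (-0.15), Tshr (0.34) and Cga (-0.10), and for cre under AA14 Dio2 (0.028). Without the oligodendrocyte-rich libraries they were, with control virus, Dio2 (-0.060), Itpr1 (0.074), Nr4a1 (-0.68) and Thrsp (-0.00011). With cre virus they were Gata2 (0.070) and Cga (-0.036), for the difference Dio2 (-0.019), and for cre under vehicle Trhr (-0.19), Dio2 (-0.14), Tshr (0.044) and Trh (0.43). Tshr with AA14 and cre virus was -0.0057 in DESeq2, -0.0033 with RLE factors and -0.18 among Malat1-poor libraries, where for cre under vehicle Tshr was 0.017 and Cga -0.15. Nr3c1 was -0.00091 without a filter.

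Leaving out each library, the values with control virus ran from -0.14 to 0.45 for Dio2, -0.34 to 0.57 for Tshr, -0.046 to 0.22 for Adcy6, -0.17 to 0.0077 for Itpr1, -0.45 to 0.50 for Nr4a1, -0.062 to 0.13 for Thrsp, -0.074 to 0.091 for Nr3c1 and -0.25 to 0.36 for Pcsk2. With cre virus they ran from -0.15 to 0.093 for Trhr, -0.16 to 0.060 for Dio2, -0.28 to 0.22 for Gata2, -0.42 to 0.24 for Tshr and -0.026 to 0.50 for Cga. For the difference they ran from -0.068 to 0.52 for Dio2 and -0.35 to 0.56 for Tshr. For cre under vehicle they ran from -0.18 to 0.11 for Trhr, -0.12 to 0.47 for Dio2, -0.65 to 0.26 for Tshr and -0.16 to 0.38 for Cga, and for cre under AA14 from -0.13 to 0.093 for Dio2.

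Libraries of the same number did not deviate together: the correlation over 18 same-numbered pairs averaged -0.0856 (-0.562 to 0.360), and 1 of 12 libraries correlated best with its own number. With the number as a replicate block 1, 0, 1, 1 and 0 genes were called, Tshb was 0.98, 0.17, 0.81, 0.37 and -0.44 in the order above, and Pcsk2 turned to 0.00015 with the control virus. Dividing counts by 4 was chosen after seeing the data and turned no sign of a member. A fit among Malat1-poor libraries was not possible for the other 3 comparisons, nor one of compared groups only for the difference, which needs all groups.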

Other observations

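The genes most like Dio2 over the 12 libraries, by the same measure as for Tshb, were Slf2 (r = 0.957), Edrf1 (r = 0.945), Neurod4 (r = 0.890), Map9 (r = 0.890) and Slc10a4 (r = 0.889). Slf2 ranged from 40.5 to 67.7 CPM and Neurod4, a factor of the anterior lobe lineages, from 48.9 to 125 CPM. Within the 7 libraries poor in Malat1 r was 0.964, 0.967, 0.901, 0.960 and 0.933. Trhr came at place 299 with r = 0.653, ahead of Tshb, Cga and Gata2. By Spearman's rho Neurod4 was at 0.741 and Slc10a4 at 0.727. These are descriptions over libraries that share their depth and state.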
